A study of Mus musculus with 2 samples.

Results

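The TRIM genes encode a family made up mostly of ubiquitin ligases, and their H4K16ac peaks were examined in R848-treated mouse macrophages. Members were the protein-coding genes whose symbol is Trim followed by a digit in RefSeq's annotation of GRCm38.p6 (mm10). There were 68 of them among 21887 protein-coding genes. The family's relatives with other symbols, such as Pml and Mid1, were kept apart. H4K16ac, the acetylation of histone H4 at lysine 16, was measured by CUT&Tag, in which an antibody guides a transposase to cut and tag nearby DNA. Primary bone marrow-derived macrophages, grown in M-CSF at 20 ng/ml, received R848, a synthetic agonist of the endosomal RNA receptor TLR7, at 100 ng/ml for 2 h. One genotype was labelled WT and the other KAT8-cKO, with 1 library each and the same treatment. Untreated cells were not analysed here, so no value below is a response to R848. How the deletion of KAT8 was driven, and how complete it was, is not given in the sources used here. KAT8 is the main enzyme that writes H4K16ac in mammals.

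Most TRIM proteins, though not all, have a RING finger that recruits ubiquitin-charged enzymes, then B-boxes and a coiled coil. They differ mostly in the C-terminal domain that picks the target. Many are induced by interferon and act on viruses directly or on the sensors and adaptors that detect them, and macrophages are among the cells where this role is best known. Others serve in every cell as transcriptional co-repressors, centrosome or membrane regulators, and some are restricted to muscle, brain, testis or the early embryo. The mouse carries a cluster of related TRIM genes on chromosome 7, whose counterparts in primates include the retroviral restriction factor TRIM5.

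Below, a marked gene is one with a deposited peak at its start or its other end, at most 1 kb away. The fold of a peak is its fragment pile-up over the peak caller's background, each plus 1, and −log10 q measures the caller's confidence. Both serve to rank peaks within a list. Whole-number summit pile-ups could be recovered for 98.1% of the 58229 peaks in wild type and 98.5% of the 55149 in KAT8-cKO cells. The commonest background was 3.09 fragments in wild type and 3.68 in the KAT8-cKO list. At that background the lowest listed pile-up was 8 in wild type and 9 in the KAT8-cKO list, or folds of 2.2 and 2.1. The median summit over all peaks, at gene ends or elsewhere, was 12 fragments in wild type and 13 in the KAT8-cKO list. Peaks at TRIM genes had a median of 14 in both lists, between 9 and 30 in wild type and between 10 and 30 in the KAT8-cKO list. Beside gene-end peaks alone, their median folds were slightly lower in both lists, as given below. A gene without a listed peak can still carry the mark below the floor. Intervals given for folds are exact 95% Poisson intervals of the summit pile-up. They cover counting error only, take fragments as independent, and ignore that a summit is the highest point of its peak. There was no replicate, so no difference between genotypes could be tested.

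The labelled cell type was checked with 10 macrophage markers. Wild-type peaks lay at 8 and KAT8-cKO ones at 6, or 80% and 60%, beside 46.8% and 43.3% of all genes. Spi1, Cebpa, Cd68, Cd14 and Mertk were in both lists and Lyz2 in neither. Csf1r, Adgre1 and Fcgr1 were in wild type only and Itgam in the KAT8-cKO list only. The windows of Cd68 overlap those of Mpdu1 and Eif4a1, and those of Csf1r overlap a window of Hmgxb3. Of 14 genes of T, B, neutrophil, erythroid and fibroblast lineages, 4 and 2 were marked, or 28.6% and 14.3%, S100a8 and Col1a1 in both lists. Wild-type folds of the macrophage markers ran from 2.06 at Csf1r and 2.08 at Spi1 to 3.62 at Mertk, beside 3.42 at S100a8. The part of other cells in the results was not tested.

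TRIM promoters that the results turn on are shown as the RefSeq entries of GRCm38.p6 give them, from 250 bases before to 50 after a transcription start, on the strand of the gene. Such entries were matched for 53 of the 68 members. Those without one are Trim3, Trim8, Trim11, Trim14, Trim16, Trim17, Trim29, Trim33, Trim35, Trim36, Trim43b, Trim43c, Trim50, Trim55 and Trim65. The sequences of Trim12a, Trim12c and Trim5 are shown because these neighbours are copies of one another with different peak calls, and those of Trim30a and Trim30d for the same reason. Trim21 and Trim26 stand for antiviral and widely expressed members outside the cluster with the interferon-type motif, and Trim45 for the wild-type TRIM peak of highest −log10 q. Capitals mark 2 motifs, each searched on both strands: GAAANNGAAA, the core of the interferon-stimulated response element (ISRE), and GAGGAAGT, a core bound by the macrophage factor PU.1.
Trim12a, chr7:104315446-104315745, minus strand: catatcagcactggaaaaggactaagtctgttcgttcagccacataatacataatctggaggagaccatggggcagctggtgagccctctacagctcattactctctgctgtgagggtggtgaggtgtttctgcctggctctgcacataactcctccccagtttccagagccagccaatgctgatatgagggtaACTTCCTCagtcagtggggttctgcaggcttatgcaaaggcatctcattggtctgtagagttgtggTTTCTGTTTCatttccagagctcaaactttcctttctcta
Trim5, chr7:104288057-104288356, minus strand: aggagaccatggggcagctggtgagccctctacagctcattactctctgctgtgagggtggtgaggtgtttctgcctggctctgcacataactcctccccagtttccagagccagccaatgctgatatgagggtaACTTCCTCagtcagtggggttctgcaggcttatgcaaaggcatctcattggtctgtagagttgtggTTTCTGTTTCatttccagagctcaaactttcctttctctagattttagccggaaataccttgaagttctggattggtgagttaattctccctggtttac
Trim12c, chr7:104353300-104353599, minus strand: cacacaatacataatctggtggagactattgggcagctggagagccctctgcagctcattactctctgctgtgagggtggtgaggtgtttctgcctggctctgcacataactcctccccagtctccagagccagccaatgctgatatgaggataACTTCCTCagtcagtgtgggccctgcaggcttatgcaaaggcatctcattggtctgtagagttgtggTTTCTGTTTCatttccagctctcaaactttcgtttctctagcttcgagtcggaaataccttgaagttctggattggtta
Trim30a, chr7:104465144-104465443, minus strand: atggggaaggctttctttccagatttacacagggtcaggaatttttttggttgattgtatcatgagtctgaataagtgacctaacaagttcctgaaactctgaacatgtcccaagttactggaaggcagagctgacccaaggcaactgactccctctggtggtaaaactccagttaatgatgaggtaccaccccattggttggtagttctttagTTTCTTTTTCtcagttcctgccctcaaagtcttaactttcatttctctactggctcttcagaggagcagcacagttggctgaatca
Trim30d, chr7:104507800-104508099, minus strand: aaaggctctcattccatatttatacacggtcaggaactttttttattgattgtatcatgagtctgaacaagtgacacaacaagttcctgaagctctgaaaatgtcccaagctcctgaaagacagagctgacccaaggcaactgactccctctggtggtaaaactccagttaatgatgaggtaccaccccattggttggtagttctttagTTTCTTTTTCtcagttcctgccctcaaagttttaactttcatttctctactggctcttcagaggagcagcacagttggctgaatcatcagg
Trim21, chr7:102565433-102565732, minus strand: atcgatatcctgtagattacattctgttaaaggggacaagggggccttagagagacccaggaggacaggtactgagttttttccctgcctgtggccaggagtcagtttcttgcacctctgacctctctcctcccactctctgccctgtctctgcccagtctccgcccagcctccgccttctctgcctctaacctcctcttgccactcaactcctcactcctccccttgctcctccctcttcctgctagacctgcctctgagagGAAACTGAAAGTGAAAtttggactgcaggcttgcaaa
Trim26, chr17:36836896-36837195, plus strand: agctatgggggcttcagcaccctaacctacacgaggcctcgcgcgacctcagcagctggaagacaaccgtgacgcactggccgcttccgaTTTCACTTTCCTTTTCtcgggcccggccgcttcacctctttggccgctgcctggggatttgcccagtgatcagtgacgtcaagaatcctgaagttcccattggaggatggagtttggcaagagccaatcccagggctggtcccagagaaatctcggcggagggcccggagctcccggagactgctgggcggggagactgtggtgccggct
Trim45, chr3:100922243-100922542, plus strand: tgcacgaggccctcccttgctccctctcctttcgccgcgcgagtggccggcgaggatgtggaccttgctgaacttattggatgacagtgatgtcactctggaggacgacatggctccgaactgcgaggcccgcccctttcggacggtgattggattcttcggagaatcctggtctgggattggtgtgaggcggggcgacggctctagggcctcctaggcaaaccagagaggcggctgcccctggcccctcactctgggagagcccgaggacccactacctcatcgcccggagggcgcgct

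The ISRE core was found in 713 of 21263 promoter entries of protein-coding genes, or 3.35%, and in 10 of 67 TRIM entries, or 14.9%. In the chromosome 7 cluster 7 of 11 entries held it. The TRIM entries with the core belong to 9 genes, 6 of them in that cluster: Trim5, Trim12a, Trim12c, Trim30a, Trim30d and Trim34a. The other 3 were Trim21, Trim26 and Trim2. Trim21 and Trim26 each held 2 overlapping matches, and Trim45 held neither motif. The PU.1 core was in 3.13% of all entries and in 5 of the 67 TRIM entries (7.46%), of Trim5, Trim12a, Trim12c, Trim24 and Trim2. Several of the cluster's promoters are near-copies, so their matches are not independent finds. Those of Trim5 and Trim12a share a run of 241 identical bases, those of Trim30a and Trim30d a run of 118, and those of Trim12c and Trim5 a run of 71. A read that falls inside such a run matches both genes, and how such reads were placed is not given in the sources used here. A match is a string of letters and no evidence that a factor binds.

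Over the whole family, the share of marked genes was near that of all genes. In wild type 38 of 68 were marked, or 55.9%, beside 46.8% of all protein-coding genes. In the KAT8-cKO list 29 were marked, or 42.6%, beside 43.3% of all. Both lists marked 26, or 38.2% beside 35.8% of all genes, and 27 were marked in neither, or 39.7% beside 45.7%. Among the 38 members with a wild-type peak, 12 had no KAT8-cKO peak, which is 31.6% beside 23.6% of all genes with a wild-type peak. Among the 29 with a KAT8-cKO peak, 3 had no wild-type peak, or 10.3% beside 17.4%.

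The calls varied with the group a member belongs to. Widely expressed members were marked in both lists in 14 of 21 cases, members of the chromosome 7 cluster in 4 of 10, antiviral signalling members outside the cluster in 3 of 5, and tissue-restricted members in 2 of 26. These are 66.7%, 40%, 60% and 7.69%, beside 35.8% of all genes, with the cluster near that share. The remaining 6 members, Trim16, Trim17, Trim52, Trim59, Trim68 and Trim80, had 3 in both lists and 3 in neither. The groups were drawn up from textbook knowledge of where each gene is expressed, and no expression was measured here.

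**Figure D1:**
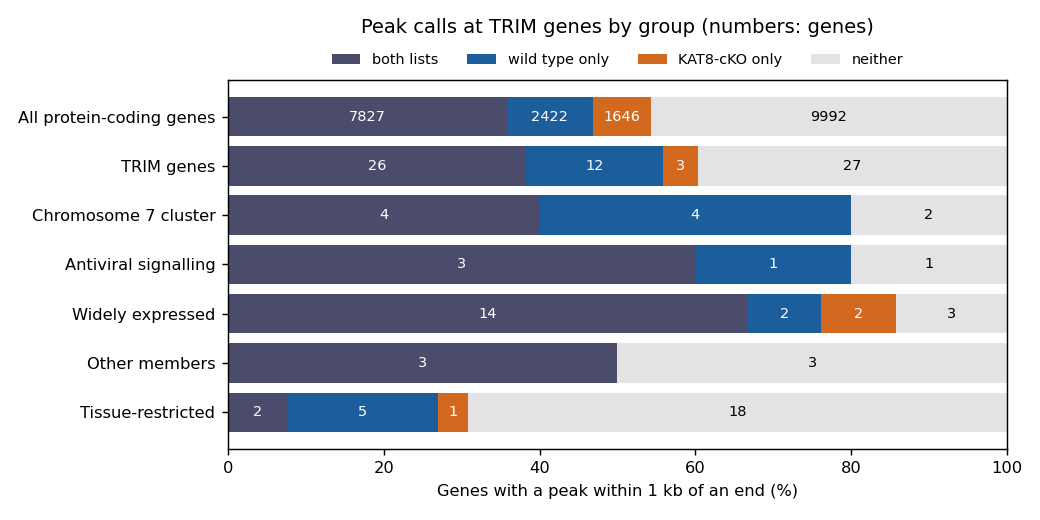
Horizontal bars give, for all protein-coding genes, all TRIM genes and 5 groups of TRIM genes, the percentage with a peak at an end by list (both, a single one or neither), with the number of genes printed in each segment. Widely expressed members are mostly marked in both lists (14 of 21), the chromosome 7 cluster is divided between both lists (4) and wild type only (4), and 18 of 26 tissue-restricted members are marked in neither.

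In the wild-type list, members with stronger peaks more often had a KAT8-cKO peak too, as all genes did. All 4 members whose −log10 q reached 5 in wild type (Trim23, Trim24, Trim39 and Trim45) also had a KAT8-cKO peak, as did 96.8% of all such genes. Of 22 members with a q-value under 0.05 but below that level, 15 had a KAT8-cKO peak, beside 77.0% of all. Of 12 members with a weaker peak, 7 did, beside 49.5%. In the opposite direction all 4 members with a KAT8-cKO −log10 q of at least 5 (Trim23, Trim24, Trim26 and Trim45) had a wild-type peak, beside 99.1% of all such genes, then 11 of 13 beside 87.6%, and 11 of 12 beside 63.9%. Peaks this strong were at 4 of 68 TRIM genes in each list, beside 12.4% of all genes in wild type and 5.99% in the KAT8-cKO list.

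Counted by peak, 46 wild-type peaks lay at TRIM genes and 26 of them, 56.5%, were overlapped by a KAT8-cKO peak, beside 60.7% of all 11005 wild-type peaks at gene ends. Of 37 KAT8-cKO peaks at TRIM genes, 26 were overlapped by a wild-type one, 70.3% beside 67.8%. The median fold of peaks at TRIM genes was 3.09 in wild type and 2.80 in the KAT8-cKO list, beside 3.18 and 2.99 for all peaks at gene ends. Most peaks sat at gene starts. Of the strongest peaks of members with a promoter entry, 27 of the 30 wild-type and 23 of the 24 KAT8-cKO ones lay within 1 kb of a start, 90% and 95.8%, beside 84.8% and 83.4% over all genes. Summits were found on both sides of the start, 14 of 27 downstream in wild type and 12 of 23 in the KAT8-cKO list. These are 51.9% and 52.2%, near the 49.6% and 54.4% over all genes.

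The chromosome 7 cluster holds 10 TRIM genes within 291 kb (chr7:104217795-104508853, with 1 kb added at each edge): Trim6, Trim34a, Trim5, Trim12a, Trim34b, Trim12c, Trim30b, Trim30c, Trim30a and Trim30d, from left to right. Wild-type peaks marked 8 of the 10 and KAT8-cKO peaks 4, each of which was also marked in wild type. These are 80% and 40% of the cluster, beside 46.8% and 43.3% of all genes, so the KAT8-cKO count was near the share of all genes. At these genes no −log10 q reached 5 in either list. With a q-value under 0.05 the counts were 5 and 2, beside 36.8% and 31.3% of all genes. Over gene bodies and 5 kb around them the counts were 9 and 8, beside 70.9% and 69.0% of all genes, since KAT8-cKO peaks also lay inside Trim6, Trim5 and Trim30d, and the peaks of the Trim12c promoter were then counted for its neighbour Trim30b as well. The counts of 8 and 4 thus hold for gene ends and not for whole genes.

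Trim12a and Trim12c, mouse relatives of primate TRIM5, had nearly equal peaks in the lists. At Trim12a the wild-type fold was 3.80 (interval 2.30 to 5.95, 17 fragments, −log10 q 3.59) at chr7:104315369-104315939. The KAT8-cKO fold was 3.84 (2.33 to 6.03, also 17 fragments, −log10 q 3.49). At Trim12c the folds were 3.45 (2.02 to 5.55) and 3.42 (2.01 to 5.50), with 15 fragments in each. Peaks of the lists overlapped at both genes, on the promoters printed above, and that of Trim12c also lies in the window of Gm38525. Ranked by −log10 q within their lists, these peaks stood above 88.3% and 80.0% of wild-type peaks and above 90.7% and 82.1% of KAT8-cKO peaks, respectively.

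Trim30d and Trim5, with promoters close in sequence to those of Trim30a and Trim12a, were listed in wild type alone. Trim30d had the highest wild-type fold of the cluster, 3.91 (2.30 to 6.29, 15 fragments, −log10 q 3.33), in a peak of 845 bp over its start at chr7:104507601-104508445. The nearest KAT8-cKO peak was 29669 bp away. Trim5 had a wild-type fold of 3.19 (1.87 to 5.13, 15 fragments, −log10 q 2.17) with the summit 24 bases before its start. The nearest KAT8-cKO peak lay 17110 bp away, inside the gene. Since Trim5 and Trim12a share 241 promoter bases, the listing of a KAT8-cKO peak at Trim12a and not at Trim5 cannot be told apart from the placement of shared reads. The same limit holds for Trim30a and Trim30d, whose promoters share a run of 118 bases. A KAT8-cKO peak was listed at Trim30a and not at Trim30d.

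Trim30a restrains TLR signalling to NF-κB by removing the adaptors TAB2 and TAB3. Its outer start had weak peaks in both lists, with folds of 2.84 (1.57 to 4.80, 12 fragments, −log10 q 1.18) in wild type and 2.56 (1.39 to 4.42, 11 fragments, 0.663) in the KAT8-cKO list. Neither had a q-value under 0.05. A peak at its inner start, 19.1 kb downstream and outside the window, was stronger in each list. There the folds were 3.41 in wild type (14 fragments, −log10 q 2.34) and 2.63 in the KAT8-cKO list (12 fragments, 0.885), and the peaks overlapped. The inner promoter entry (chr7:104446076-104446375) also holds the ISRE core.

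Trim34a, an interferon-inducible member, had a peak at its start in both lists, where the wild-type fold was 2.65 and the KAT8-cKO fold 2.78. Its strongest wild-type peak (fold 3.18, −log10 q 1.65) was at its other end and was not matched in the KAT8-cKO list. Trim6, which makes unanchored ubiquitin chains in interferon signalling, had a weak wild-type peak (2.93, −log10 q 1.18), as had Trim30c (2.44, 0.435, 9 fragments), and both lacked a KAT8-cKO one. Trim34b and Trim30b were marked in neither. Of the 8 wild-type peaks, 3 thus had a q-value of 0.05 or more (Trim6, Trim30a and Trim30c), and 2 of the 4 genes in wild type only were among them.

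**Figure D2:**
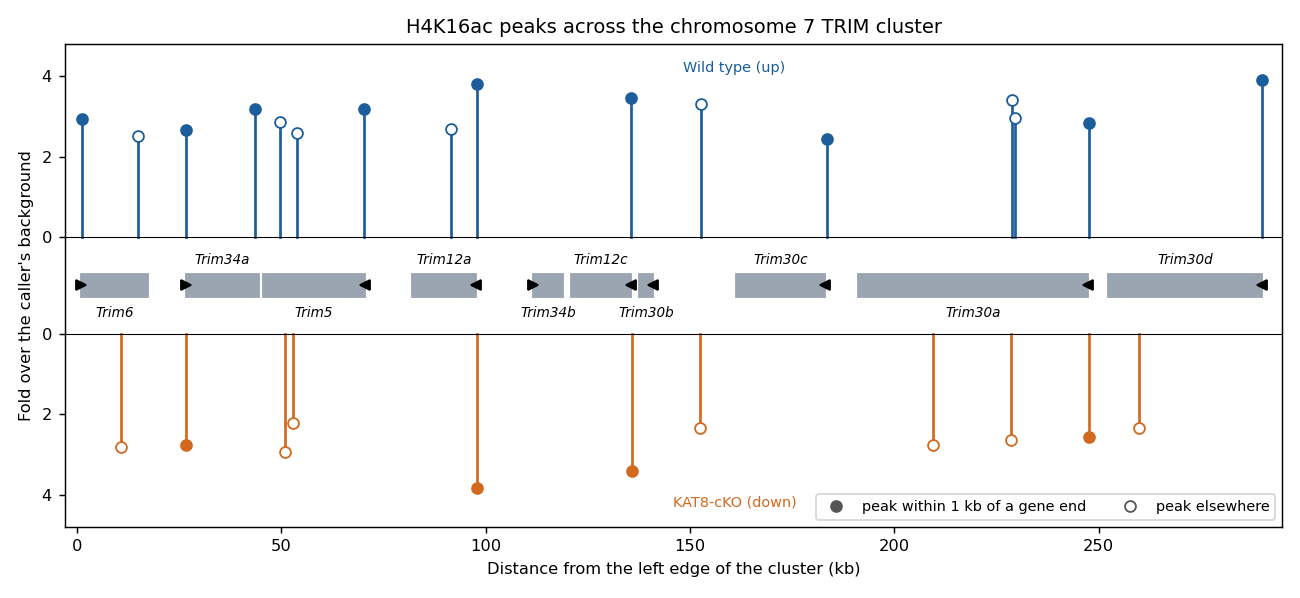
The horizontal axis is the distance from the left edge of the chromosome 7 cluster in kb, grey boxes are the 10 TRIM genes with an arrowhead at the start, and stems give the fold of each wild-type peak (up) and each KAT8-cKO peak (down) on a linear scale, filled where the peak is within 1 kb of a gene end. Of 16 wild-type peaks 9 are at gene ends, and of 11 KAT8-cKO peaks 4 are, with nearly equal stems at Trim12a and Trim12c and wild-type stems alone at Trim5 and Trim30d.

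The cluster held more peaks per length than the DNA beside it, where most genes encode olfactory receptors. No density over the whole genome was computed, so the comparison is with these flanks alone. It held 16 wild-type and 11 KAT8-cKO peaks, or 5.50 and 3.78 per 100 kb. The 1 Mb before it, with the beta-globin genes and 51 olfactory receptor genes among 62 protein-coding genes, held 7 and 20 peaks, or 0.70 and 2.0 per 100 kb. The 1 Mb after it, with 35 olfactory receptor genes among 43, held 10 and 16, or 1.0 and 1.6 per 100 kb. Peak numbers were thus higher in the wild-type list inside the cluster and higher in the KAT8-cKO list on both sides of it. Of the olfactory receptor genes, 2 before and 1 after the cluster had a wild-type peak, and 4 before and 0 after it a KAT8-cKO one. Of the other genes there, 0 of 11 before and 2 of 8 after the cluster had a wild-type peak. A KAT8-cKO peak was at 2 of these before and 3 after it. Over all protein-coding genes the shares were 46.8% and 43.3%. Of the 7 wild-type peaks away from TRIM gene ends within the cluster, 2 were overlapped by a KAT8-cKO peak, the inner start of Trim30a and a site between Trim30b and Trim30c.

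The antiviral signalling members outside the cluster were Trim14, Trim21, Trim25, Trim38 and Trim56. Trim21, the cytosolic antibody receptor, had the highest folds of these, of 3.91 in wild type (2.30 to 6.29, 15 fragments, −log10 q 3.33) and 4.27 in the KAT8-cKO list (2.66 to 6.55, 19 fragments, 4.74). The KAT8-cKO peak, at chr7:102564939-102565751, overlaps both wild-type peaks there. Trim56, which promotes signalling from DNA and RNA sensors, had folds of 3.61 (2.22 to 5.60, −log10 q 3.46, above that of Trim21) in wild type and 2.93 (1.69 to 4.78) in the KAT8-cKO list. Trim25, the ligase that activates the RNA sensor RIG-I, had strongest folds of 2.59 and 2.57, neither with a q-value under 0.05. Its wild-type peak was overlapped by a second KAT8-cKO one of 2.36. Trim14, an adaptor at the mitochondrial protein MAVS, had a wild-type fold of 3.25 (2.05 to 4.94, 20 fragments, −log10 q 3.14) and its nearest KAT8-cKO peak 4298 bp away. Trim38 was marked in neither list. So 3 of the 5 were marked in both lists, and the intervals overlapped at each.

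The strongest TRIM peaks belonged to widely expressed members. Trim24, a nuclear receptor co-regulator with a bromodomain, had folds of 5.29 in wild type (3.37 to 7.96, 21 fragments, −log10 q 7.42) and 5.08 in the KAT8-cKO list (3.30 to 7.52, 23 fragments, 7.53). Trim45, linked to MAP kinase signalling, had folds of 4.98 (3.41 to 7.05, 30 fragments, −log10 q 9.72) and 4.66 (3.17 to 6.62, 29 fragments, 8.45). Trim23, which carries an ARF-type GTPase domain and acts in autophagy, had folds of 4.59 (2.89 to 6.96, 20 fragments, −log10 q 5.80) and 5.83 (3.99 to 8.24, 30 fragments, 11.7). Its peaks are shared with the windows of Trappc13 and Shld3. At these 3 genes both lists held a −log10 q of at least 5, and Trim23 ranked above 98.9% of marked genes in the KAT8-cKO list.

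Trim26 and Trim39 lie in the major histocompatibility region of chromosome 17. Trim26, which acts on antiviral signalling, had folds of 4.12 in wild type (2.56 to 6.31, −log10 q 4.64) and 4.24 in the KAT8-cKO list (2.75 to 6.27, 5.73). Trim39, a cell cycle regulator, had a wild-type fold of 4.78 (3.16 to 6.97, 25 fragments, −log10 q 7.65) in a single peak of 1280 bp. In the KAT8-cKO list 3 small peaks of 200, 472 and 206 bp lay within 1 kb of that end, the strongest with a fold of 2.79 (1.58 to 4.63, 13 fragments, −log10 q 1.17). The Trim39 intervals still overlapped. Of the 4 members whose −log10 q reached 5 in wild type, Trim39 was the one whose KAT8-cKO q-value was not under 0.05.

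Among the other widely expressed members with high wild-type folds, Trim33, a regulator of TGF-β signalling and close relative of Trim24, had 3.66 in wild type (14 fragments) and 2.35 in the KAT8-cKO list (10 fragments), in peaks that did not overlap but lay 141 bp apart. Trim37, a centrosome and peroxisome regulator with a MATH domain, had 3.38 and 2.78, and Trim41 had 3.33 and 2.93. Trim28, the co-repressor of KRAB zinc finger proteins also known as KAP1, had peaks at a pair of sites in both lists. All of these peaks also lie in a window of Gm31649. At the Trim28 start the folds were 3.11 and 3.59 (2.29 to 5.41), and further upstream 3.18 (1.93 to 4.99) and 2.83. The 4 genes were listed in both libraries, and at Trim28 the stronger site was the upstream one in wild type and the start in the KAT8-cKO list. Widely expressed members listed once were Trim11 (2.52) and Trim62 (2.57) in wild type, and Trim32 (3.36) and Trim35 (2.80) in the KAT8-cKO list. Of these peaks only that of Trim32, a ligase mutated in a limb-girdle muscular dystrophy, had a q-value under 0.05 (−log10 q 2.32), and the nearest wild-type peak was 13208 bp away. A KAT8-cKO peak lay 348 bp from that of Trim11. Trim2, Trim8 and Trim13 had no peak at an end in either list.

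Tissue-restricted members were mostly unmarked, 18 of 26 in neither list, or 69.2% beside 45.7% of all genes. Trim46, an organiser of the axon initial segment, and Trim58, an erythroid member, were in both lists. The Trim58 peaks overlapped (2.41 and 2.34). The Trim46 peaks did not: that of wild type (3.07) lay at the 3′ end beside Muc1 and that of the KAT8-cKO list (2.99) at the start, in a window shared with Krtcap2. In wild type only there were 5: Trim7 (3.60, −log10 q 3.04), Trim54 (3.43, 2.57), Trim63 (3.12, 1.74), Trim29 (2.91, 1.58) and Trim50 (2.55, 0.805). Trim63 and Trim54 encode the muscle ligases MuRF1 and MuRF3. The Trim54 peak lay at the other end, in the window of Ucn, and was overlapped by a KAT8-cKO peak (2.79) just outside the Trim54 window. Trim7 had a further peak at an inner start, 11.3 kb downstream, in both lists (3.89 and 3.35). The KAT8-cKO list alone marked Trim72 (3.07, −log10 q 1.86), the muscle membrane repair protein MG53, at the end away from its start. Within the gene or the 5 kb around it, all 5 members in wild type only (Trim7, Trim54, Trim63, Trim29 and Trim50) had a KAT8-cKO peak. Of all genes, marked or not, 69.0% had one there.

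**Figure D3:**
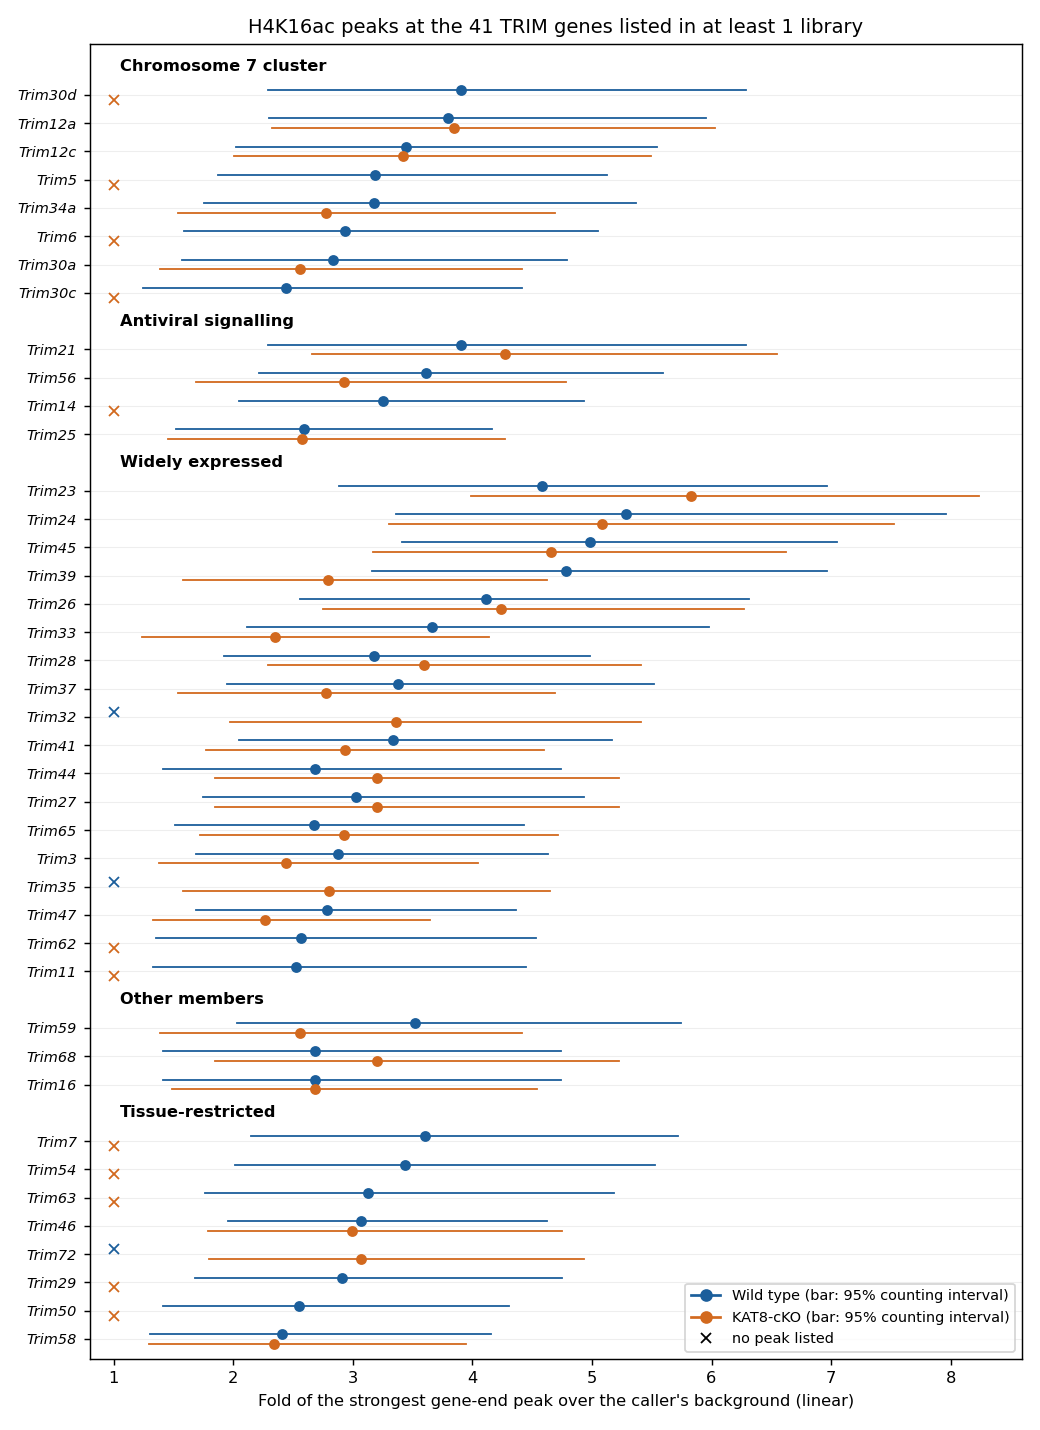
Each row is a TRIM gene listed in at least 1 library, grouped by role, and the horizontal axis is the fold of its strongest gene-end peak over the caller's background on a linear scale, with blue points for wild type, orange points for the KAT8-cKO list, bars for 95% counting intervals and crosses, drawn at 1, where no peak was listed. The bars of wild type and the KAT8-cKO list overlap at all 26 genes listed in both, and the highest points are at Trim23, Trim24 and Trim45.

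Where both lists held a peak, counting intervals overlapped at 26 of 26 members. They also did at 7633 of 7641 genes in both lists with recovered pile-ups, 99.9%, so at this depth the overlap is shared by nearly all genes. The fold was higher in wild type at 17 of them, 65.4%, beside 70.4% of the 7827 genes in both lists. At 19 of the 26 the strongest peaks of the lists overlapped. The same count was not made over all genes, so whether 19 is usual is not known. The lowest folds of members in both lists were 2.41 in wild type, at Trim58, and 2.27 in the KAT8-cKO list, at Trim47.

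Promoter composition differed between the groups. Cluster promoters held a median of 1 CpG dinucleotide in 300 bases (0 to 8) and a G+C content of 45.0% (42.7% to 49.0%), against medians of 13 and 56.3% over all 21263 entries. The 23 entries of widely expressed members had a median of 19 CpGs (0 to 46) and 59.3% G+C. The 28 promoter entries of the 22 members in both lists spanned 0 to 46 CpGs, with a median of 15. The 9 entries of 8 members in wild type only had a median of 7, and the 28 of 21 members in neither 5. A gene with several entries counts once for each, under the call of the gene. Medians by call over all genes are not given here, so whether this order is particular to TRIM genes is not known. Trim30a with 0 CpGs and Trim44 with 46 were both marked in both lists. Wild-type folds ran up to 3.91 at cluster genes and from 2.52 to 5.29 at the widely expressed members. Only peaks above the listing floor have a fold, so a shared range says little. In each list −log10 q reached 5 at 0 of 10 cluster members and at 4 of 21 widely expressed ones. These are 0% and 19.0%, beside 12.4% of all genes in wild type and 5.99% in the KAT8-cKO list.

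**Figure D4:**
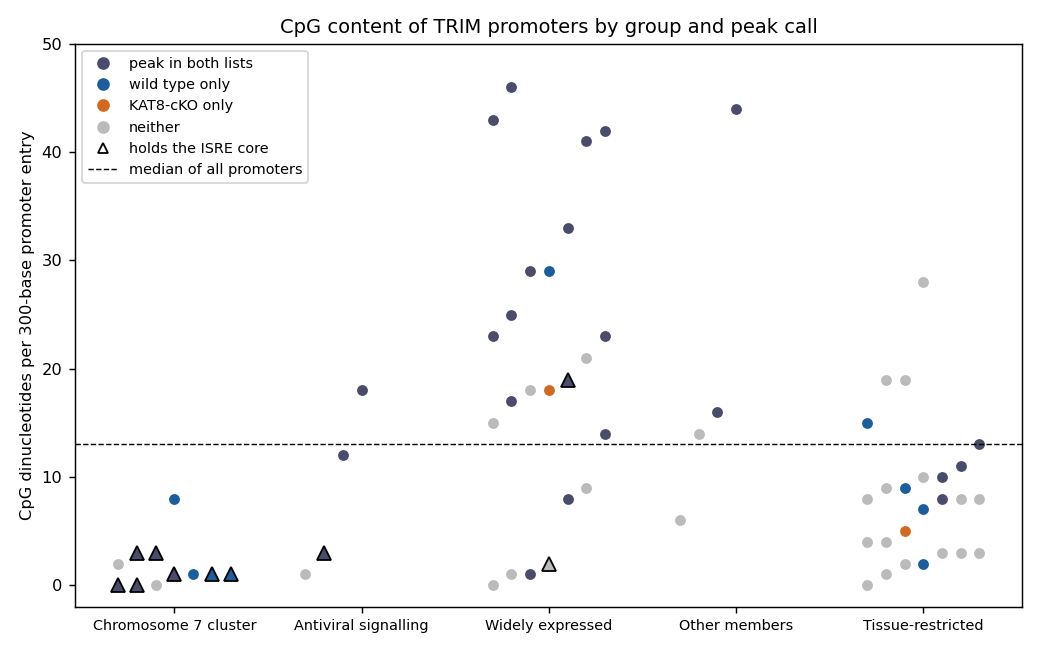
Each point is a RefSeq promoter entry of 300 bases, placed by TRIM group (horizontal axis, with points spread sideways for legibility) and by its number of CpG dinucleotides (vertical axis), coloured by peak call, with triangles for entries that hold the ISRE core and a dashed line at 13, the median of all entries. The cluster entries lie at 0 to 8 CpGs and 7 of 11 are triangles, while the widely expressed entries reach 46.

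Genes that TRIM ligases work with were looked at as lists. Over all genes, 35.8% were in both lists, 11.1% in wild type only and 7.52% in the KAT8-cKO list only. Of 17 ubiquitin, E1 and E2 genes, 15 were marked in both lists, or 88.2%, and 2, Uba1 (3.91) and Ubb (2.59), in wild type only. Ube2v2 (6.43 in wild type and 4.05 in the KAT8-cKO list), Ube2d3 (4.95 and 4.27), Ube2w (4.91 and 3.63) and Ube2n (4.44 and 4.51) had the highest wild-type folds. Ube2n and its partners Ube2v1 and Ube2v2 build the K63-linked chains used in TLR and RIG-I signalling. Of 18 genes of RNA and DNA sensing and TLR signalling, 12 were in both lists, or 66.7%. Tab3 (4.89) and Traf3 (2.75) were in wild type only, and Cgas (3.0) in the KAT8-cKO list only. Ikbke, Irf3 and Ticam1 were in neither. Ikbkg had the highest wild-type fold (6.35, and 2.56 in the KAT8-cKO list), followed by Tab3, Traf6 (4.19 and 2.99) and Map3k7 (4.03 and 3.73). The sensors Ddx58 (RIG-I; 2.75 and 2.78) and Ifih1 (MDA5; 3.59 and 3.42), the adaptor Mavs (3.92 and 3.0), and Tab2 (3.05 and 4.37), which Trim30a acts on, were in both. Of 11 TRIM relatives with other symbols, 5 were in both lists, or 45.5%, among them Pml (3.32 and 3.20), Mid1 (2.76 and 2.56) and Rnf135 (2.99 and 2.99). Mefv (2.84) and Cmya5 (3.18) were in wild type only and Fsd1 (2.37) in the KAT8-cKO list only. Of the companion genes named with a peak, Ube2n, Cgas, Ikbkg, Cmya5 and Fsd1 share a window with another gene.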

How the data were processed

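The data were 2 peak lists, from 1 library of each genotype. Per the submitters' processing notes the build was mm10, and Bowtie 0.12.8, MACS2 2.2.7.1 and DiffBind were used, with no roles stated. The settings of the caller, any control and how duplicates and multiply matching reads were handled were not given in the sources used here. The deposited lists give for each peak a score, a fold ratio over background, and −log10 of p and of q. No normalization between libraries is recorded, so folds served to rank peaks within a list.

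Gene positions and promoters came from RefSeq tables of GRCm38.p6. Windows were 1 kb on either side of both gene ends, a gene took its peak of highest −log10 q, and an overlap of 1 bp made a peak shared. Pile-ups were solved from the deposited fold and −log10 p as MACS2 computes them, to within 0.2% of −log10 p. Tested on simulated data, 1979 of 2000 pile-ups came back and 0 were wrong, and marked genes differed from a direct search at 0 of 500 genes. Software was Python 3.11.15 with pandas 2.3.3, scipy 1.17.1 and Biopython 1.88.

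Cluster members were chained by gaps of at most 500 kb. Named were all cluster and antiviral members, the 8 widely expressed ones of highest wild-type fold with those unmarked, members with −log10 q of at least 5 or listed once, and the leading companion genes. Others named were chosen after their values were seen, as were the comparisons with the DNA beside the cluster, the inner starts and the identical promoter runs. The members and lists were chosen with earlier results of these data known.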

Additional observations from a re-analysis of the deposited data

How the results depend on the processing

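With 1 library per genotype no library could be left out. Of 74 recomputed counts, 37 stayed within 1.5 times the value reported and 37 did not; windows of 500 bp or 3 kb moved none by more. With a q-value under 0.05, 17 members were marked in the KAT8-cKO list, 12 in both and 5 in the KAT8-cKO list only (25%, 17.6% and 7.35%, beside 31.3%, 25.3% and 6.01% of all genes), and the cluster had 5 wild-type and 2 KAT8-cKO genes and the widely expressed group 10 KAT8-cKO ones. With the strongest 20000 peaks of each list, 23 members were marked in wild type, 17 in the KAT8-cKO list, 12 in both and 5 in the KAT8-cKO list only (33.8%, 25%, 17.6% and 7.35%, beside 33.0%, 28.0%, 22.3% and 5.72%), with 4 and 2 in the cluster and 10 widely expressed members in the KAT8-cKO list. When −log10 q had to reach 5, 4 members were marked in wild type, 4 in the KAT8-cKO list, 3 in both, 1 in wild type only (Trim39) and 1 in the KAT8-cKO list only (Trim26), beside 12.4%, 5.99%, 4.59%, 7.85% and 1.40% of all genes; the cluster had 0 in each and the widely expressed group 4 in each. Over gene bodies and 5 kb around them, 51 members were marked in the KAT8-cKO list and 48 in both (75% and 70.6%, beside 69.0% and 62.7%), with 8 in the cluster. In the promoter entries alone, 24 of 53 members were marked in wild type and 6 in wild type only (45.3% and 11.3%, beside 39.3% and 10.6%). Among members whose windows touch no other gene's, fewer genes were counted (45 of 68): 21 in wild type, 17 in the KAT8-cKO list, 14 in both and 7 in wild type only (46.7%, 37.8%, 31.1% and 15.6%, beside 37.4%, 34.8%, 27.5% and 9.87%), with 5 and 2 of 6 in the cluster, and 7 and 8 of 12 widely expressed members. When an overlap of 50% of both peaks was required, 15 wild-type and 15 KAT8-cKO peaks at members were shared (32.6% and 40.5%, beside 40.5% and 44.0% of all peaks at gene ends). Beyond the smaller numbers of peaks, genes or bases that these settings leave by construction, the cause was not tested. The cluster had at least as many wild-type as KAT8-cKO genes under each of the 8 settings tried on it (0 of each when −log10 q had to reach 5), and so had all genes together. Depth limits every call, since at the commonest background a summit of fewer than 8 wild-type or 9 KAT8-cKO fragments was not listed.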

Other observations

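TRIM genes lie in further groups on other chromosomes, looked at after their values were seen. On chromosome 17, 6 members (Trim39, Trim26, Trim15, Trim10, Trim40 and Trim31) lie within 651 kb. The widely expressed Trim39 and Trim26 were marked in both lists, and the other 4, known from epithelia or erythroid cells, in neither, although the windows of Trim15 and Trim26 overlap. The testis members Trim75, Trim60 and Trim61 on chromosome 8 and the embryonic members Trim43a, Trim43b and Trim43c on chromosome 9 were marked in neither. On chromosome 7, Trim21 and Trim68, 129 kb from edge to edge, were both marked in both lists. Genes on chromosome 17 as a whole had peaks in both lists in 38.5% of cases and in neither in 41.5%. The share in neither was 35.8% on chromosome 8 and 45.8% on chromosome 9, and the share in both was 30.5% on chromosome 7. Genome-wide these shares were 35.8% for both lists and 45.7% for neither. The groups are small, and whether their calls differ from these shares was not tested.

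Of the 27 members unmarked at their ends, 18 had a peak in the gene or the 5 kb around it in at least 1 list. Of all genes, marked or not, 70.9% had a wild-type peak there and 69.0% a KAT8-cKO one. The share among all unmarked genes was not computed. The other 9 of the 27 members, with none, were Trim10, Trim15, Trim34b, Trim38, Trim40, Trim42, Trim43a, Trim43b and Trim52. Of the 3 widely expressed members without a peak at an end, Trim2 had 5 wild-type peaks within the gene or 5 kb of it, the highest with a fold of 4.89, and 3 KAT8-cKO ones, one of them (2.56) over an inner start 37.6 kb from its outer end. Trim8 had 1 and 4 such peaks, and Trim13 had 1 and 0. The muscle gene Trim55 (MuRF2), unmarked at its ends, had 1 peak of high fold in each list, 5.10 in wild type and 5.32 in the KAT8-cKO list. Classes set by the C-terminal domain are given beside the 35.8% of all genes marked in both lists. Here 3 of 4 members with a bromodomain (Trim24, Trim28 and Trim33) were marked in both lists, with Trim66, known from testis, in neither. Of 7 with a COS box, which binds microtubules, 1 was in both lists, and another 2 had a wild-type peak only, and of 4 with NHL repeats 1, Trim3, was in both and Trim32 in the KAT8-cKO list only.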
